A study of Mus musculus with 6 samples.

Results

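The resident macrophages of the liver were examined through 10 marker genes, chosen by their symbols out of 40803 genes in the count table. Clec4f, Vsig4, Timd4, Marco, Cd5l and Folr2 mark resident Kupffer cells, and Adgre1, Csf1r, Cd68 and Lyz2 are carried by macrophages in general. Liver RNA came from male C57BL/6J mice on a normal diet, injected at about 6 weeks of age with a recombinant adeno-associated virus of serotype 8 (rAAV8) and collected 4 weeks later. Mice of the rAAV8-Scramble group (n = 3) received a virus with a scrambled hairpin, and mice of the rAAV8-Hnf1aos1 group (n = 3) received a virus with a hairpin against Hnf1aos1, a long non-coding RNA of the liver. Both viruses carried an EGFP reporter and drove the hairpin from the U6 promoter, which is not restricted to a cell type, so every library came from a liver exposed to virus, EGFP and a hairpin. The comparison asked how the macrophage compartment of the whole liver differed between the knockdown and the scramble mice.

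Kupffer cells line the liver sinusoids, where they take up bacteria, aged red cells and debris from the blood coming from the gut. In the healthy liver they are seeded before birth and renew themselves, their survival depends on the receptor encoded by Csf1r, and monocytes from the blood can fill the niche when resident cells are lost. Clec4f and Timd4 belong to the settled resident cell, whereas Lyz2 is also made by monocytes and neutrophils. RNA was measured on whole liver tissue, so more cells of a type and more RNA per cell cannot be told apart for any gene described here.

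Gene counts per library totalled 14704746 to 19462398. The targeted Hnf1aos1 averaged 541 ± 69.5 normalized counts (SD, n = 3) in the scramble and 323 ± 95.5 in the knockdown libraries, a log2 fold change of -0.74 (SE 0.20) whose adjusted p of 0.0625 in edgeR's quasi-likelihood test missed the threshold of 0.05, although the groups did not overlap and DESeq2 gave an adjusted p of 0.00346. Without the third knockdown library, which had the most Hnf1aos1 left of its group, the log2 fold change was -1.01 and the edgeR adjusted p 0.000261. Leaving out any of the other 5 libraries gave -0.60 to -0.81 with edgeR adjusted p of 0.113 to 0.218. Alb, the hepatocyte albumin gene that checks the tissue, stood at 57212 ± 1961 TPM (a level scaled by gene length and library depth) in the scramble and 56372 ± 5543 in the knockdown libraries. All 10 macrophage markers were detected in all 6 libraries.

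The stretches just before the gene starts are shown for the markers with the clearest or largest differences, since these genes share a lineage and stood on the same side of 0 in the comparison that follows. RefSeq promoter windows of 250 bases (GRCm38.p6) were matched by symbol for 8 of the 10 genes, in 9 windows. The windows were searched on both strands for GAGGAA, a core bound by PU.1 and other ETS factors of myeloid cells, for TGCTGA, a half-site of the MAF factors of macrophages, and for the interferon response element, sought as a pair of GAAA runs with any 2 bases between them. None of these motifs overlaps another in the windows printed, and capitals mark the matches to GAGGAA or TGCTGA in either orientation, with each sequence written 5′ to 3′ on the strand of its gene.
Clec4f promoter, chr6:83656117-83656366, minus strand: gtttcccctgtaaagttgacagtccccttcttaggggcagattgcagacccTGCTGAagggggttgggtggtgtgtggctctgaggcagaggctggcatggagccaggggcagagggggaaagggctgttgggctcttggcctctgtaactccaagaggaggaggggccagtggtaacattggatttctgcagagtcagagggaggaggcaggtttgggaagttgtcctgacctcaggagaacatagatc
Marco promoter, chr1:120505025-120505274, minus strand: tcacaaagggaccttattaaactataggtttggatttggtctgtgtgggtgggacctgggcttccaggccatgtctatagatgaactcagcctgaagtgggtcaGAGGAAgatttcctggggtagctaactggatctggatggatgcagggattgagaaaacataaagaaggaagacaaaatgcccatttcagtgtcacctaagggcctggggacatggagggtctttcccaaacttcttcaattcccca
Cd5l promoter, chr3:87357631-87357880, plus strand: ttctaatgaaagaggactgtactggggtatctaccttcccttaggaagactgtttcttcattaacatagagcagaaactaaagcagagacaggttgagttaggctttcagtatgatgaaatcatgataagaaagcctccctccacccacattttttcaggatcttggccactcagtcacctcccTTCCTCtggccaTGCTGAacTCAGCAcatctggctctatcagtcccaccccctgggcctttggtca
Lyz2 promoter, chr10:117282273-117282522, minus strand: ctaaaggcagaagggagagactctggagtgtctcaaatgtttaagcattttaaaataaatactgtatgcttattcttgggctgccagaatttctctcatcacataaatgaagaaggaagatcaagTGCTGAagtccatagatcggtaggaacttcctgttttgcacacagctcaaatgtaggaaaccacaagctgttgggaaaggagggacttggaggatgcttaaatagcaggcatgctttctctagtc
The Clec4f window held TGCTGA 199 bases before the gene start, and the Lyz2 window held it 125 bases before. In the Marco window GAGGAA stood 146 bases before the start. The Cd5l window held GAGGAA, read from the opposite strand as TTCCTC, 66 bases before the start and TGCTGA at 54 and, on the opposite strand, at 46 bases before. Over the marker windows, GAGGAA was present in 4 of 9, against 23.3% of 32851 promoter windows of the same length, and TGCTGA in 6 of 9, against 16.1%. Folr2 had more than 1 window, each with 1 TGCTGA, and was counted for each of them. The interferon response element was in 0 of 9, against 2.98% of all windows. These matches are descriptions of letters, and no factor binding was measured.

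Every marker was higher on average in the knockdown livers, by 1.13 to 2.67 times, and 3 of them passed the test across all genes. Clec4f, Adgre1 and Lyz2 rose by 1.35, 1.33 and 1.38 times. Genes were called at an adjusted p under 0.05 in the quasi-likelihood test of edgeR (Benjamini-Hochberg over the 16327 genes tested), which called 6.32% of all genes, 3.09% upward and 3.23% downward, and among the markers 3 of 10 upward and 0 downward. DESeq2 called 4 of the 10 upward (Clec4f, Marco, Cd5l and Lyz2) and 0 downward, beside 3.57% and 3.39% of all genes that it could adjust. Without the adjustment, 8 of the 10 had a p under 0.05, compared with 3822 of the 16327 genes. The median log2 fold change was 0.43 over the markers, 0.45 over the 6 resident and 0.40 over the 4 general ones, beside a median of -0.0004 over all genes tested. In 8 of the 10 the lowest knockdown library lay above the highest scramble library, a separation seen in 15.2% of all genes tested, and 0 of the 10 were separated in the other direction, as 13.7% of all genes were. A log2 fold change above 0 was found for 10 of the 10, against 49.9% of all genes.

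Among the resident markers, Clec4f encodes the lectin receptor by which mouse Kupffer cells are most often told from other macrophages. Scramble mice 1 to 3 gave 1179, 1045 and 985 normalized counts, against 1516, 1540.4 and 1292 for knockdown mice 1 to 3. All knockdown libraries stood above all scramble libraries, with the third knockdown library nearest to them. The log2 fold change was 0.44 (SE 0.10, 95% interval 0.21 to 0.66, edgeR adjusted p = 0.0327, DESeq2 adjusted p = 0.0139), and Clec4f was the only resident marker called by edgeR. With 3 libraries against 3, the exact two-sided permutation test gave 0.1, the smallest p it can reach, for Clec4f and for each of the other 7 markers whose groups did not overlap.

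Vsig4 encodes a complement receptor with which Kupffer cells catch opsonized particles, and its normalized counts of 391, 277 and 286 in scramble mice compared with 497, 434 and 393 in knockdown mice. The groups lay apart by a narrow margin, since the first scramble library nearly reached the third knockdown library. Its log2 fold change of 0.47 (SE 0.15, interval 0.15 to 0.79) had an adjusted p of 0.0784 in edgeR. Timd4 encodes a receptor for phosphatidylserine on dying cells and marks long-settled Kupffer cells. It had 116, 96.6 and 119 normalized counts in scramble mice, against 155, 163 and 119.6 in knockdown mice, so that the third libraries of the groups were almost level. The log2 fold change of 0.40 (SE 0.17, interval 0.04 to 0.77) did not pass, with an edgeR adjusted p of 0.174.

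Marco, a scavenger receptor for bacteria and particles, showed the largest fold change of the markers and the widest spread. Scramble mice had 23.6, 39.5 and 42.9 normalized counts, against 76.3, 152 and 54.3 in knockdown mice. The second knockdown library was far above the rest, and the groups still did not overlap. The log2 fold change was 1.41 (SE 0.41, interval 0.48 to 2.35), and it was 0.89 without that library. edgeR gave an adjusted p of 0.0797 and DESeq2 one of 0.00459, so that the call depended on the test. Over the edgeR fits that left out 1 library each, only the fit without the third knockdown library called Marco, with a log2 fold change of 1.70 and an adjusted p of 0.00813.

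Cd5l encodes a protein secreted by tissue macrophages that shapes lipid metabolism and apoptosis. Scramble mice had 556, 425 and 406 normalized counts of Cd5l, against 784, 992 and 600.5 in knockdown mice, again apart and again with the second knockdown library highest and the third lowest. The log2 fold change was 0.78 (SE 0.20, interval 0.32 to 1.23), with an adjusted p of 0.0586 in edgeR and 0.00101 in DESeq2. Folr2, the folate receptor of resident macrophages, had 133, 96.6 and 112 normalized counts in scramble mice, against 149.7, 167 and 97.8 in knockdown mice. The third knockdown library fell inside the scramble range, so the groups overlapped. Its log2 fold change of 0.27 had an interval of -0.18 to 0.73 that included 0 (edgeR adjusted p = 0.461, exact permutation p = 0.4). It was 0.12 without the second knockdown library, 0.16 without the second scramble library and 0.48 without the third knockdown library.

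Among the general markers, Adgre1 encodes the surface receptor most widely used to stain mouse macrophages. Scramble mice had 309, 278 and 275 normalized counts, and knockdown mice had 379.5, 420.02 and 349.6, with no overlap. It rose by a log2 fold change of 0.41 (SE 0.11, interval 0.17 to 0.66, edgeR adjusted p = 0.0485), a call just inside the threshold that DESeq2, with an adjusted p of 0.0791, did not make. Lyz2, a lysozyme gene of macrophages, monocytes and neutrophils, had 695, 584 and 597 normalized counts in scramble mice, against 856, 908 and 817 in knockdown mice. It had the tightest knockdown group for its level and a clear gap to the scramble libraries. The log2 fold change was 0.46 (SE 0.10, interval 0.25 to 0.67), with the smallest adjusted p of the markers, 0.0223 in edgeR, and DESeq2 called it too (adjusted p = 0.00987).

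Cd68 encodes a glycoprotein of the endosomes and lysosomes of phagocytes, and had 149, 123 and 123 normalized counts in scramble mice, against 166, 192 and 156 in knockdown mice. The groups lay apart, and the log2 fold change of 0.38 (SE 0.15, interval 0.06 to 0.70) did not pass the adjustment in edgeR (adjusted p = 0.146). Csf1r, the receptor for the growth factors on which Kupffer cells depend, had 809.5, 659.7 and 676 normalized counts in scramble mice, against 801, 882 and 749.9 in knockdown mice. Its groups overlapped, because the first scramble library exceeded 2 of the 3 knockdown libraries. It showed the smallest log2 fold change of the markers, 0.18 (SE 0.11, interval -0.05 to 0.41, edgeR adjusted p = 0.330, exact permutation p = 0.3). It was 0.12 without the second scramble or the second knockdown library and 0.28 without the first scramble library.

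**Figure D1:**
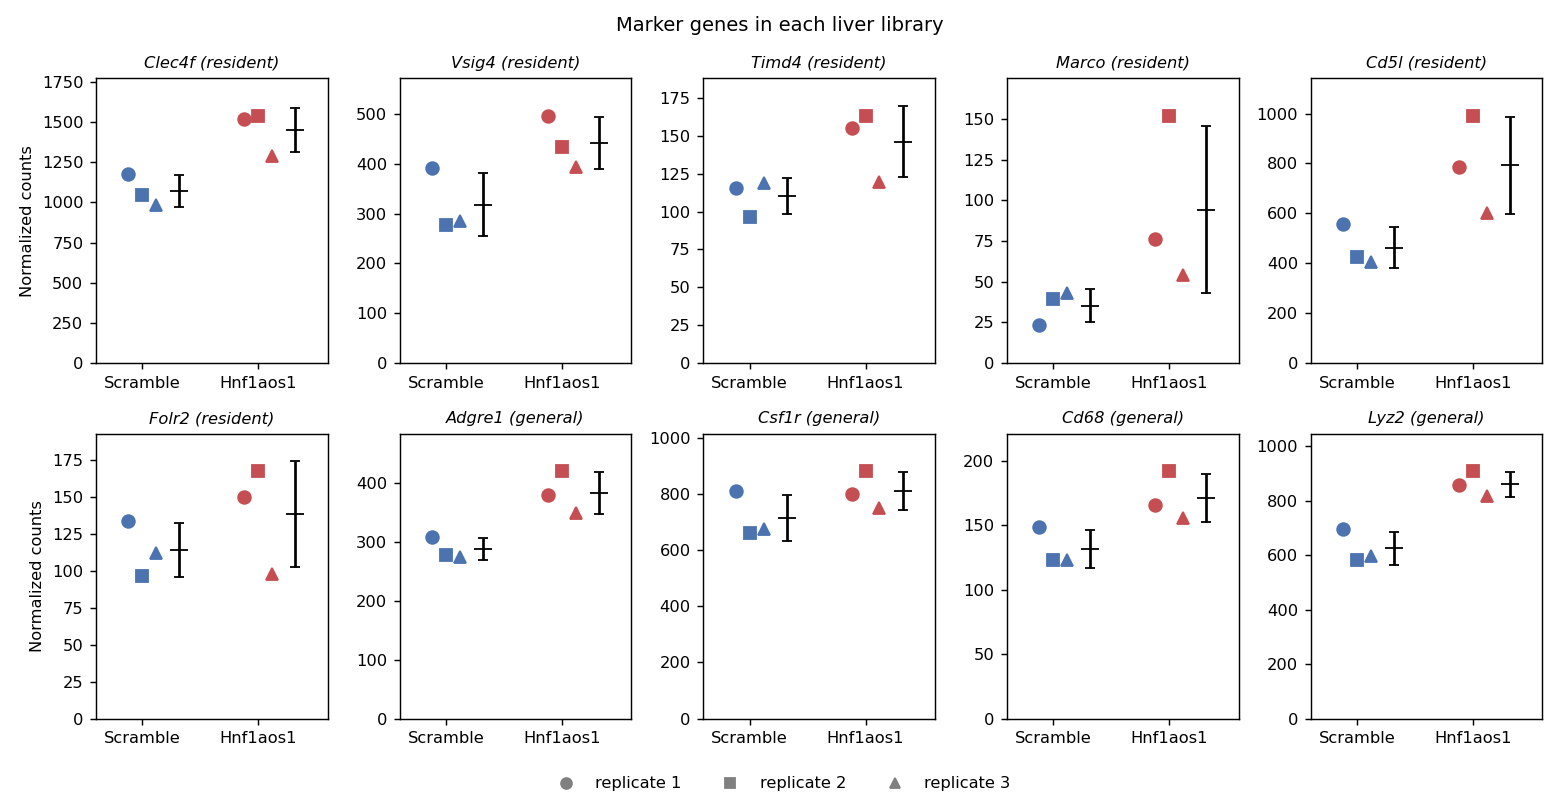
Normalized counts of the 10 markers in each of the 3 scramble and 3 knockdown libraries, 1 panel per gene with a linear axis from 0, and with the mean and SD of each group. The groups do not overlap for 8 genes, and Folr2 and Csf1r are the exceptions.

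**Figure D2:**
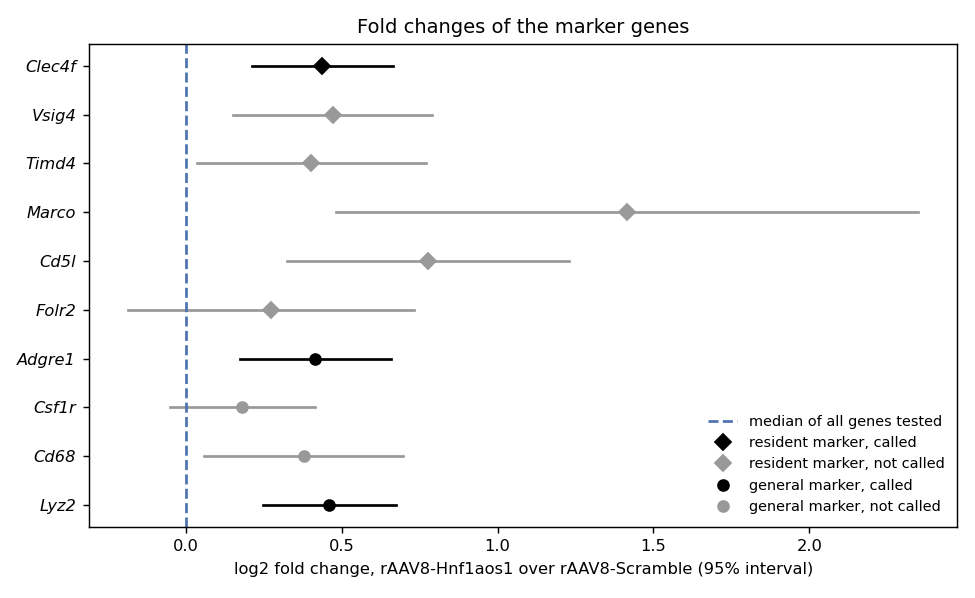
Log2 fold change (knockdown minus scramble) of each marker from edgeR with its 95% interval, with genes called at an adjusted p under 0.05 in black and the median of all genes tested as a dashed line. All 10 estimates lie above 0, from 0.18 for Csf1r to 1.41 for Marco, and the intervals of Folr2 and Csf1r include 0.

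The libraries of each group kept a similar order from marker to marker. The third knockdown library was the lowest of its group for 10 of 10 markers and the second was the highest for 9, while the first scramble library was the highest of its group for 8. Relative to the scramble mean, the median over the markers was 0.47, 0.55 and 0.28 on the log2 scale in knockdown replicates 1 to 3, and 0.16, -0.11 and -0.07 in scramble replicates 1 to 3. The markers therefore shared their spread between animals and are not separate replicates of the condition.

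The calls depended on which libraries were in the fit. Without the second scramble library, the third scramble library or the second knockdown library, 0 of the 10 markers were called by edgeR, although 6, 7 and 6 kept an unadjusted p under 0.05. Without the first knockdown library only Lyz2 was called (adjusted p = 0.0389), without the first scramble library Clec4f, Lyz2, Vsig4 and Cd5l were, and without the third knockdown library those 4 were called together with Marco and Adgre1. The share of all genes called moved as well, from 0.619% without the third scramble library to 11.2% without the third knockdown library. Over these 6 fits, Clec4f ranged from 0.38 to 0.52 on the log2 scale with adjusted p from 0.00662 to 0.174, Lyz2 from 0.41 to 0.55 with 0.0101 to 0.128, and Adgre1 from 0.35 to 0.48 with 0.0211 to 0.208. All 10 log2 fold changes were above 0 in each of the 6 fits.

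**Figure D3:**
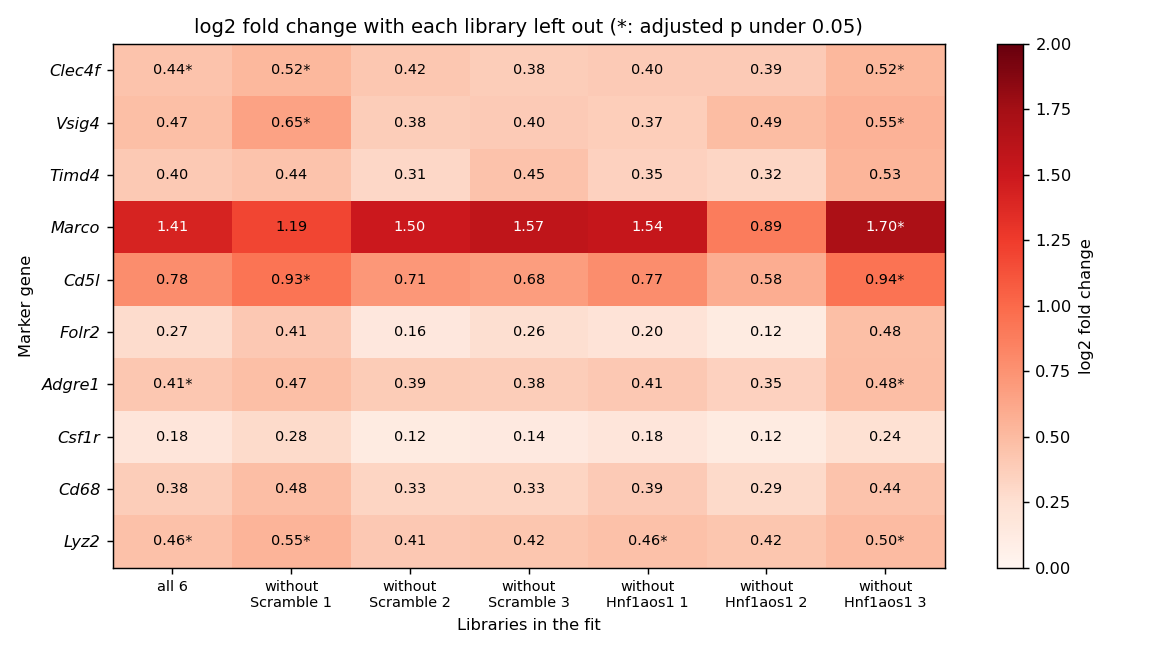
Heat map of the log2 fold change of each marker (rows) in the edgeR fit of all 6 libraries and in the 6 fits that leave out 1 library each (columns), with an asterisk where the adjusted p was under 0.05. Every value lies above 0, and Marco moves most, from 0.89 without the second knockdown library to 1.70 without the third.

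Levels could be compared between genes only per length, as TPM. In the scramble livers the order ran from Lyz2 (77.1 ± 7.18 TPM) through Clec4f (40.9 ± 3.22), Cd5l (29.5 ± 4.90), Vsig4 (28.9 ± 5.55), Csf1r (24.04 ± 2.65), Cd68 (13.7 ± 1.46), Folr2 (11.2 ± 1.84), Adgre1 (11.2 ± 0.664) and Timd4 (6.31 ± 0.829) to Marco (2.40 ± 0.734). Cd5l and Vsig4, Vsig4 and Csf1r, Cd68 and Folr2, and Folr2 and Adgre1 were neighbours whose libraries overlapped. In the knockdown livers the TPM were 100.6 ± 5.68 for Lyz2, 52.6 ± 5.76 for Clec4f, 48.03 ± 11.5 for Cd5l, 38.1 ± 5.72 for Vsig4, 25.9 ± 2.05 for Csf1r, 16.96 ± 1.69 for Cd68, 14.1 ± 1.27 for Adgre1, 12.9 ± 3.41 for Folr2, 7.92 ± 1.34 for Timd4 and 6.02 ± 3.16 for Marco. Clec4f remained above Cd5l in 2 of the 3 knockdown libraries, and Timd4 remained above Marco in 2 of 3. The summed TPM of the 6 resident markers was 107.5 to 136 in the scramble and 134 to 183 in the knockdown libraries, which overlapped, and that of the 4 general markers was 115 to 139 and 145.5 to 165, which did not.

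Resident and general markers were then set against each other inside each library, where the depth cancels. The mean log2 normalized count of the resident markers minus that of the general markers was -0.91, -0.84 and -0.77 in scramble mice, against -0.52, -0.43 and -0.83 in knockdown mice. The third knockdown library lay within the scramble range and the other 2 lay above it. The group difference was 0.25 (-0.84 ± 0.07 against -0.59 ± 0.21), which was larger than the SD of either group although the groups overlapped. It was 0.11 when Marco was left out, 0.17 without the second knockdown library and 0.37 without the third.

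Relative to Csf1r in the same library, a comparison chosen after the values were seen, 7 of the other 9 markers were higher in every knockdown than in every scramble library, as were 4.28% of all genes tested, while 0 of the 9 and 18.9% of all genes were lower in every one. Csf1r had the smallest fold change of the markers, which largely set the direction of these ratios, so they are given as a description without a test. The log2 ratio of Lyz2 to Csf1r was -0.22, -0.18 and -0.18 in scramble mice, against 0.10, 0.04 and 0.12 in knockdown mice, and that of Cd68 to Csf1r was -2.44, -2.42 and -2.46 against -2.27, -2.20 and -2.27. Neither ratio varied by more than 0.1 within a group. The differences in log2 ratio to Csf1r were 0.28 for Lyz2, 0.20 for Cd68, 0.23 for Adgre1, 0.25 for Clec4f, 0.30 for Vsig4, 0.58 for Cd5l and 1.14 for Marco, while Timd4 (0.21) and Folr2 (0.07) overlapped. Relative to Clec4f, the groups overlapped for every other marker but Csf1r, for which the difference in log2 ratio was -0.25. Ratios to Clec4f lay apart upward for 1.75% and downward for 49.6% of all genes.

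**Figure D4:**
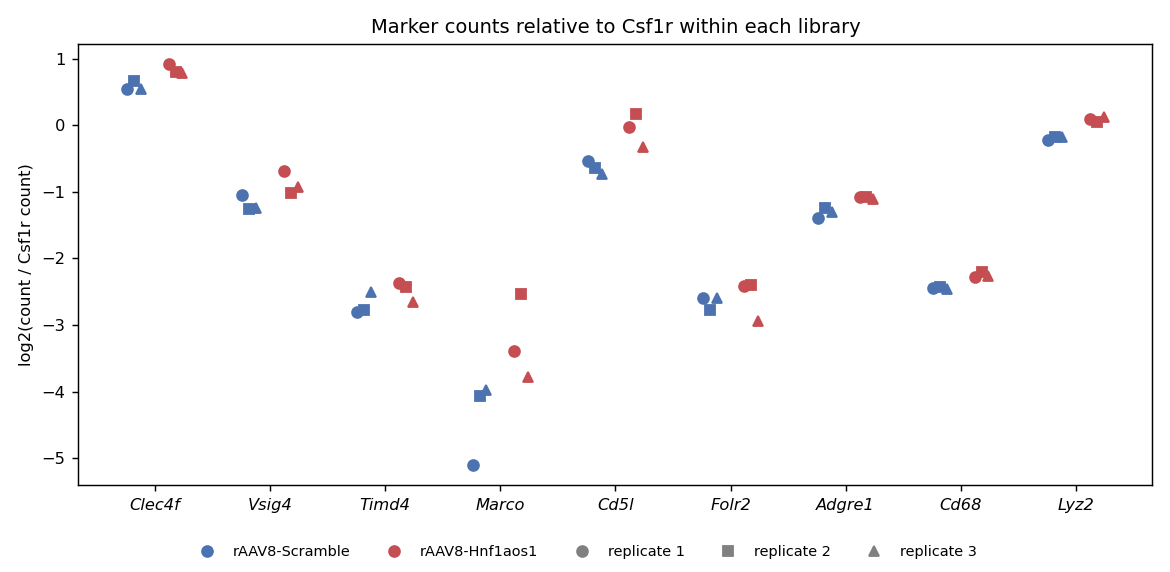
Log2 ratio of the raw counts of each of the other 9 markers to those of Csf1r in the same library, with 1 point for each of the 3 scramble and 3 knockdown libraries. The knockdown libraries lie above all scramble libraries for 7 markers, and Timd4 and Folr2 overlap.

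Near copies could lend reads to some of the markers. Lyz1, the lysozyme gene next in sequence to Lyz2, had 3 to 12 raw reads per library and was too low to test. The longest transcripts of the pair were 96.0% identical over 1262 aligned bases, and 15.4% of the 50-base windows of Lyz2 but 0% of its 150-base windows occurred exactly in Lyz1. Folr1, the relative of Folr2 named after its values were seen, had 0 to 4 raw reads per library and 75.4% identity over 670 aligned bases.

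The profiles most like that of Clec4f, by the root mean square difference of centred log2 CPM (counts scaled by depth) over the 6 libraries among 15016 genes, were those of Depdc7 (0.030), Polr1c (0.036) and Ccdc6 (0.037). For Lyz2 they were Xdh (0.034), Zfp953 (0.045) and Zfp518a (0.049). None of these 6 genes is in the marker set or in the lists described next, and Xdh, at 3959 normalized counts in the scramble libraries, is the abundant xanthine dehydrogenase of the liver.

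Further genes of the macrophage were read from lists. The counts called in every list below stand beside the shares of all genes. These were 3.09% higher and 3.23% lower in edgeR, and 3.57% and 3.39% in DESeq2. In a list of 16 other Kupffer identity genes, such as transcription factors and surface receptors, edgeR called 1 higher and 0 lower, DESeq2 called 4 higher and 0 lower, and 13 lay above 0, with a median log2 fold change of 0.24. The gene called by both was C6, a terminal complement component that hepatocytes also make, with a log2 fold change of 0.61 (SE 0.11, edgeR adjusted p = 0.0105) and 191 TPM in the scramble livers, well above any marker. C6 was called in 5 of the 6 fits that lacked 1 library and not without the third scramble library (edgeR adjusted p = 0.0841). DESeq2 alone called Siglec1, the sialoadhesin of tissue macrophages, at 0.67 (adjusted p = 0.00545, edgeR 0.0656), Id3, a regulator of the Kupffer cell fate, at 0.98 (adjusted p = 0.000332, edgeR 0.0771), and Il18bp, the secreted blocker of interleukin-18, at 0.74 (adjusted p = 0.0198, edgeR 0.184). These 3 genes and Spic, the transcription factor of iron-recycling macrophages, are named after their values were seen. Spic had 11.3, 9.88 and 12.1 normalized counts in scramble mice, against 30.5, 32.3 and 17.2 in knockdown mice. Its groups did not overlap, and its log2 fold change of 1.25 (SE 0.36) had an edgeR adjusted p of 0.0643.

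A list of 11 phagocyte genes held genes of complement C1q and of Fc receptors, with which phagocytes recognise and engulf coated particles. It also held Tyrobp, Cd14, Mertk and Axl, and is the C1q and Fc receptor list in the plot of lists. edgeR called 3 of the 11 higher and 0 lower, beside 3.09% and 3.23% of all genes tested. Above 0 lay 10, with a median of 0.46. Mertk, named after its values were seen, was the gene below 0, at -0.17 (edgeR adjusted p = 0.277). Its groups lay apart downward, as did 13.7% of all genes tested. C1qa, a chain of C1q made mainly by macrophages, had 332, 285 and 289 normalized counts in scramble mice, against 456, 490.3 and 379 in knockdown mice, and rose by a log2 fold change of 0.55 (SE 0.12, edgeR adjusted p = 0.0277). C1qb, its partner chain, rose by 0.46 (SE 0.12, edgeR adjusted p = 0.0458). Fcgr1, the high-affinity receptor for immunoglobulin G, rose by 1.09 (SE 0.27, edgeR adjusted p = 0.0388) from a low level of 25.6 ± 5.61 to 54.8 ± 10.6 normalized counts. No gene of this list was called without the second or the third scramble library, or without the first or the second knockdown library. Those fits called 2.34%, 0.619%, 3.77% and 1.93% of all genes in either direction. Without the third knockdown library 8 of the list were called, in a fit that called 11.2% of all genes. Over the 6 fits that lacked 1 library, the log2 fold change of C1qa ran from 0.47 to 0.65, that of C1qb from 0.39 to 0.59 and that of Fcgr1 from 0.96 to 1.28.

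A list of 7 genes of colony-stimulating factor signalling (the CSF1 receptor axis in the plot of lists) held the Csf1r ligands Csf1 and Il34, the receptors Csf2ra, Csf2rb and Csf3r for other such factors, and the myeloid regulators Cebpb and Runx1. It had a median of 0.41 with 0 called in either direction by edgeR, 4 at an unadjusted p under 0.05 and 1 called higher by DESeq2. Cebpb, the gene called by DESeq2, stood at 0.80 (edgeR adjusted p = 0.150), and at 1.02 with an adjusted p of 0.0202 without the first knockdown library. The Csf1r ligands lay on opposite sides of 0. Csf1, named after its values were seen, stood at 0.42 (SE 0.12, edgeR adjusted p = 0.0586) with no overlap of its groups, and without the third knockdown library its edgeR adjusted p was 0.0357. Il34 stood at -0.56 (edgeR adjusted p = 0.327) and, with 1 library left out, between -0.39 and -0.94. Runx1 stood at -0.62 (edgeR adjusted p = 0.202) and between -0.40 and -0.85. Of 12 lysosomal genes of phagocytes 0 were called by edgeR, 6 had an unadjusted p under 0.05, 10 lay above 0 and 1 was called by DESeq2, with a median of 0.23. Ctss, a cathepsin of antigen-presenting cells, had a log2 fold change of 0.57 (edgeR adjusted p = 0.0623), and Lgmn, a lysosomal protease, one of 0.36.

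Monocyte and recruited macrophage genes did not move one way. Of 15 listed, 11 were tested, 1 was called higher and 2 lower. The median was 0.05, which became -0.02 when libraries were scaled by their totals alone. Relative to the median of all genes tested, it was 0.05 under both scalings. Plac8, a gene of classical monocytes, had 72.8, 59.3 and 80.3 normalized counts in scramble mice, against 129.7, 156 and 98.7 in knockdown mice, and rose by a log2 fold change of 0.85 (SE 0.21, edgeR adjusted p = 0.0360). Gpnmb, a glycoprotein of lipid-laden recruited macrophages, had 28.7, 37.3 and 50.6 normalized counts in scramble mice, against 10.5, 4.75 and 9.96 in knockdown mice. It fell by 2.19 on the log2 scale (SE 0.38, edgeR adjusted p = 0.0105). Cd9, a tetraspanin of such cells that other liver cells also make, fell by 0.61 (SE 0.13, edgeR adjusted p = 0.0233). Among the 6 fits that lacked 1 library, Gpnmb was called in 5 (-1.91 to -2.38), all but that without the third scramble library (adjusted p = 0.0805), Cd9 in 2, without the first or the third knockdown library (-0.52 to -0.67), and Plac8 in 1, without the third knockdown library (0.69 to 1.01).

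Of 13 macrophage activation genes, 7 were tested, 0 were called by edgeR or DESeq2 and 2 had an unadjusted p under 0.05. The median was -0.18 and became 0.02 when libraries were scaled by their spike-ins. Relative to the median of all genes tested, the genes of this list had a median of -0.18 under both scalings. Their summed TPM was 221 to 238 in scramble and 129 to 202 in knockdown mice, with no overlap, most of it from Slc7a2, a cationic amino acid transporter that hepatocytes also make, named here after its values were seen (182 and 121 TPM on average). Il1rn, the secreted antagonist of the interleukin-1 receptor, stood at 1.21 with 133 normalized counts in the second knockdown library against 45.8 and 23.5 in the other two, and at 0.25 without that library. Il1b, the cytokine it opposes, stood at 0.91 (0.63 to 1.22 with 1 library left out), and Retnla, a gene of alternatively activated macrophages, at -1.46 (-0.93 to -2.28). Their groups overlapped.

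Markers of other cells were read in the same way. Of 12 neutrophil genes only 1 had enough reads to test, Ly6g and Mpo had 0 reads in all 6 libraries, and the summed TPM of the list was 1.46 to 2.52 in the scramble and 3.76 to 9.17 in the knockdown libraries, with no overlap. S100a8, named after its values were seen, had 1, 1 and 2 raw reads in scramble mice, against 7, 11 and 4 in knockdown mice. S100a9, named likewise, had 2, 1 and 0 against 12, 9 and 6. The groups of the other neutrophil genes with reads overlapped, and these too are named after their values were seen. Mmp9, the gene tested, had a log2 fold change of -0.0025 (edgeR adjusted p = 0.998). Mmp8 and Camp were lower on average in the knockdown libraries, whereas Retnlg, Cxcr2, Ngp, Ltf and Elane were higher, all from few reads. The part of neutrophils in the Lyz2 difference was not tested. Pan-leukocyte genes had a median of 0.26 with 0 of 6 called by edgeR or DESeq2 and 1 at an unadjusted p under 0.05, and their summed TPM overlapped, at 88.9 to 99.4 and 82.8 to 100.8. Cd53, a tetraspanin of all leukocytes, had the largest difference, 0.63 (SE 0.17, edgeR adjusted p = 0.0553).

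Dendritic cell, T and NK cell, and B and plasma cell genes had medians of -0.03, 0.10 and 0.14, with 0 of 6 called in each list by edgeR or DESeq2 and with overlapping summed TPM. At an unadjusted p under 0.05 stood 0, 2 and 0 of them. Of 10 sinusoidal endothelial genes, from the lining on which Kupffer cells sit, 9 lay below 0 (median -0.07). Of 10 stellate cell genes 9 did (median -0.11). When libraries were scaled by their spike-ins, 8 and 6 of them lay above 0, but the median of all genes tested also moved to 0.20. Above that median lay 1 of 10 in each list, with spike-in scaling as in the main fit. In either list 0 were called by edgeR or DESeq2, and 0 and 1 stood at an unadjusted p under 0.05. The summed TPM of the endothelial list was 218 to 228 in scramble and 179.5 to 217 in knockdown mice, which did not overlap, and that of the stellate list was 203 to 259 and 171 to 219, which did. Cholangiocyte genes had a median of 0.31 with 0 of 4 called by edgeR or DESeq2 and 0 at an unadjusted p under 0.05, and their summed TPM of 32.7 to 38.9 in the scramble and 46.8 to 183 in the knockdown libraries was led by Spp1, with 2161 normalized counts in the first knockdown library against 426 and 513 in the other two. Without that library Spp1 had a log2 fold change of 0.65 and an edgeR adjusted p of 0.0148, beside 1.79 and 0.274 with it. The part of any of these cells in the marker differences was not tested.

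Of the 7 hepatocyte genes, edgeR called 0 higher and 1 lower and DESeq2 called 1 each way, with a median of 0.12. The gene called higher by DESeq2 alone was Apoa1, the main protein of high-density lipoprotein, named here after its values were seen, with a log2 fold change of 0.41 (DESeq2 adjusted p = 0.00551, edgeR adjusted p = 0.0581). The gene called lower was Tat, the tyrosine aminotransferase of hepatocytes, which fell by 0.72 on the log2 scale (SE 0.12, edgeR adjusted p = 0.00766), and without the third scramble library its edgeR adjusted p was 0.0523. The summed TPM of the hepatocyte list was 70883 to 76168 in the scramble and 66873 to 80416 in the knockdown libraries, which overlapped.

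**Figure D5:**
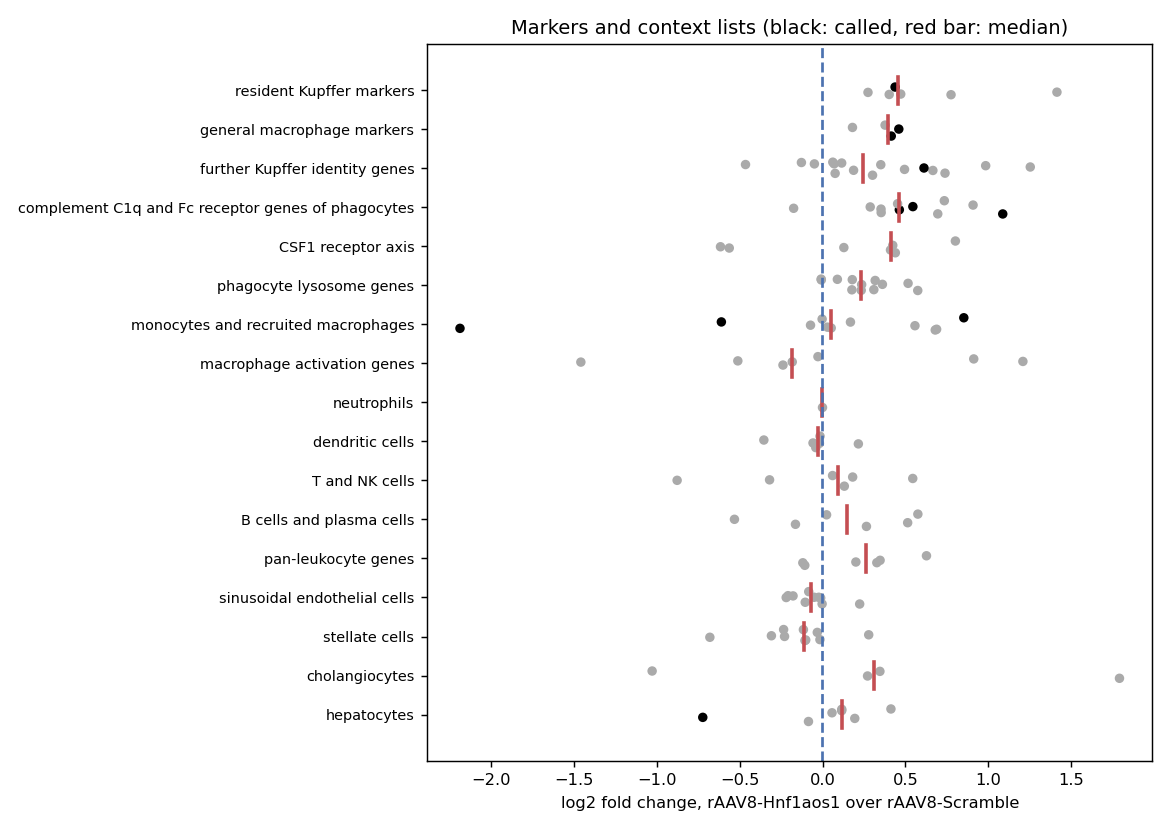
Log2 fold changes of the tested genes of each list (points), for the resident and general markers and the 15 other lists, with genes called at an adjusted p under 0.05 in black, list medians as red bars and the median of all genes tested as a dashed line. The resident markers (median 0.45) and the list of C1q, Fc receptor and other phagocyte genes (median 0.46) stand furthest above 0. The medians of the sinusoidal endothelial (-0.07) and stellate cell genes (-0.11) lie close to 0. Single genes range from -0.22 to 0.22 in the endothelial and from -0.68 to 0.28 in the stellate list.

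The spike-in RNAs took 1.38 to 1.52% of reads in the scramble and 1.18 to 1.24% in the knockdown libraries, with no overlap. When library sizes were taken from the spike-ins, the median of all genes tested shifted to 0.20 and that of the markers to 0.63, and 9 of the 10 markers were called, against 20.9% of all genes in either direction. The markers' median above that of all genes was 0.43 under this scaling too. Scaled by library totals alone, the markers' median was 0.36 beside -0.07 over all genes, 1 marker was called, and all 10 lay above 0.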

How the data were processed

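Liver RNA of 6 mice was sequenced, 1 library per mouse. Per the methods, the authors trimmed reads with Trimmomatic, mapped them with STAR and used featureCounts to count exonic reads that mapped to 1 place. The methods name GRCm38 and the labels GRCm39, the methods name poly(A) selection and the labels rRNA depletion, and the strand setting is not given in the sources used here, so antisense partners cannot be told apart. The authors deposited raw counts, TPM (here used for levels between genes) and normalized counts (a depth-scaled signal, raw counts over 1 DESeq2 size factor per library). A table with the authors' own fold changes and p-values was not used.

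Raw counts without the 92 spike-in rows were filtered with filterByExpr (16327 genes kept, all 10 markers among them), scaled by TMM and tested with edgeR 4.0.16 (quasi-likelihood, robust, all 6 libraries, Benjamini-Hochberg over all genes tested, threshold 0.05) in R 4.3.3. The normalized counts printed are raw counts over the TMM-adjusted library size relative to its mean. DESeq2 1.42.0, limma 3.58.1 voom, other scalings and filters, a fold change limit and the removal of each library were alternatives, and scaling by spike-ins was added after the data were seen. Exact permutation tests were two-sided and cannot go below 0.1 with 3 against 3. p-values measure the spread between these mice. Promoters came from RefSeq tables by symbol, and motifs were searched in the 250 bases before each start. Scripts were tested on simulated data. Named genes were the 10 markers, Lyz1, Alb, Hnf1aos1, the called genes of each list or else up to 3 with the largest fold changes at an average log2 CPM of at least 0, and the 3 profiles most like Clec4f and Lyz2. Genes named outside this rule are marked where they appear, and 1 gene that the rule names is not reported here. The markers and lists were chosen with earlier results of these data known.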

Additional observations from a re-analysis of the deposited data

How the results depend on the processing

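All 10 markers lay above 0 under every alternative, but the number called, 3 in the reported fit, did not hold. It was 1 with library totals, 6 with no filter on low counts, 0 with a log2 fold change limit of 1, 9 with spike-in library sizes (chosen after seeing the data), 4 with DESeq2, 2 with DESeq2 size factors or a minimum mean of 50 counts, 3 with limma voom and 0 to 6 when 1 library was left out. Over all genes, the 505 called higher became 319 with library totals, 870 with no filter, 128 with the fold change limit and 3033 with spike-ins, and 38 to 1015 when 1 library was left out. The 527 called lower became 1032 with no filter, 224 with the fold change limit and 65 to 866 when 1 library was left out. Leaving out the third scramble library gave the lowest and leaving out the third knockdown library the highest of these counts. The 3 markers called by limma voom were Cd5l, Clec4f and Lyz2, so Cd5l took the place of Adgre1. Of the 15 alternatives, Folr2 was called under 0, and Timd4, Csf1r and Cd68 each under 1. Adgre1 was called under 3, Marco under 4, Vsig4 under 5, Cd5l under 8, Clec4f under 10 and Lyz2 under 12. The labels number the mice of each group without stating a pairing. Deviations of same-numbered libraries correlated by -0.02, 0.02 and 0.003, none over 0.1. With 3 libraries per group, these correlations cannot decide whether same-numbered mice shared a step of handling. With the replicate block 4 markers were called (Clec4f, Lyz2, Cd5l and Vsig4), with 429 genes called higher and 449 lower over all genes. The resident minus general difference of 0.25 was 0.24 from TPM. Marco, at 23.6 to 152 normalized counts, was the marker with the fewest reads, and with 3 mice per group its interval was the widest.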
